A study of Drosophila melanogaster with 2 samples.

Results

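The genes described are 10 Drosophila melanogaster genes for insulator and boundary proteins, out of 13968 protein-coding genes in the annotation. They were chosen by name, with binding results of these data in view, and all 10 symbols matched 1 gene each. They are BEAF-32, CTCF, su(Hw), pita, Cp190, mod(mdg4), Chro, pzg, Dref and M1BP. The assay was chromatin immunoprecipitation and sequencing of the transcription factor toe (twin of eyegone) in whole adult males of unknown age from 1 transgenic line. The flies stably express toe with GFP at its C-terminus, and an antibody against GFP recovered the sonicated chromatin. The labels form 1 group of 2 biological replicates, numbered 2 and 3, so no condition was compared. Whole flies pool all cell types, so a region cannot be assigned to one of them. The labels also name a control experiment, which was not analysed here.

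Insulator proteins bind DNA at the borders of chromatin domains and between neighbouring genes, and can keep an enhancer from acting on a promoter across the border. In flies a set of sequence-specific proteins (BEAF-32, CTCF, su(Hw) and pita among the 10) marks such sites and recruits shared cofactors such as Cp190 and mod(mdg4). Many fly borders lie at housekeeping promoters, where Chro and pzg are found and where Dref and M1BP bind promoter elements. The results below concern a different question, namely where toe-GFP regions lie at the genes that encode these proteins.

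Of the 10 genes, 7 had a promoter peak, that is, a summit of the authors' reproducible list within 500 bp of an annotated start site. By the same rule 2701 of 13968 protein-coding genes (19.3%) had one. The 7 were Chro, Cp190, Dref, pita, BEAF-32, pzg and M1BP. CTCF, su(Hw) and mod(mdg4) had none, although mod(mdg4) carried the second strongest region of the 10 genes inside its gene body. Since the genes were named with these peaks known, the count is a description and was not tested.

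Stretches of the regions are printed here to show what lies at the peaks on both sides of the strength range. Each is the longest part of its region outside all annotated exons, read from the plus strand of the RefSeq copy of dm6, and capitals mark any of 8 short elements that were searched.
Cp190 to CG4338, chr3R:15275242-15275521: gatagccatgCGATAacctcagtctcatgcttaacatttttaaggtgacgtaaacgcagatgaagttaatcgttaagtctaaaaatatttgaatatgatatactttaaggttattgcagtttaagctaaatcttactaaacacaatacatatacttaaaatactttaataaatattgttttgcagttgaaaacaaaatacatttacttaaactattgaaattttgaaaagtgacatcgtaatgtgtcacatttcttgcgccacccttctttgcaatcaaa
Dref to RpL13, chr2L:9967230-9967312: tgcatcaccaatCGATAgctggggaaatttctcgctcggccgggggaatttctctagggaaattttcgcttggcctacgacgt
M1BP to CG8202, chr3R:8731819-8732090: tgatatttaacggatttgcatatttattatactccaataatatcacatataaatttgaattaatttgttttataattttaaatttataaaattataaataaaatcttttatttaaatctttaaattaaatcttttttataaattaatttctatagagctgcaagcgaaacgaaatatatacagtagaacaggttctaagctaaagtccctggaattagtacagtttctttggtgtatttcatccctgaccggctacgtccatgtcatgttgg
mod(mdg4) precursors, chr3R:21365489-21365608: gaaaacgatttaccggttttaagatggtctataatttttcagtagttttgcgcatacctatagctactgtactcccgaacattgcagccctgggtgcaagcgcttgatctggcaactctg
The Cp190 and M1BP stretches hold the summit. In the 201 bp around the summit 23.4% of bases were G or C at Cp190 and 37.3% at M1BP, against a median of 35.8% over all promoter peaks. The Dref summit and the mod(mdg4) summit lie just outside the printed stretches, inside transcribed sequence.

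The strongest 3 regions were at the cofactor genes Chro, mod(mdg4) and Cp190, while that of the cofactor gene pzg was second weakest of the 7 promoter peaks. Chro (Chromator) encodes a chromodomain protein of the interbands of polytene chromosomes. Its peak ran from 22878730 to 22879077 on chromosome 3L of dm6, with an authors' signal of 808.0, and ranked 32 of 3469 reproducible peaks. The corresponding region had a signal of 451.1 and rank 38 in the list of replicate 2, and a signal of 352.6 and rank 27 in that of replicate 3. No source used here gives the scale of the signal, so it orders regions within a list and is not compared between lists. Chro thus stood among the 40 strongest of 30000 regions in both replicates. Its summit lay 85 bp downstream of the outermost of 3 start sites, in the 5′ UTR.

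Cp190 encodes a BTB and zinc finger protein that several insulator proteins recruit. Its peak (3R, 15275208 to 15275571) had a signal of 556.7 and ranked 87, and the region ranked 72 in replicate 2 (signal 353.2) and 120 in replicate 3 (signal 202.9). The summits of the replicates, at 15275364 and 15275365, differed by a single base. The peak lay 123 bp upstream of the Cp190 start site, in the gap that it shares with CG4338.

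The gene pzg (putzig, also called Z4) encodes a zinc finger protein that works with Chro at interbands. Its peak (3L, 21285677 to 21286096) had a signal of 180.4 and ranked 824, with rank 811 in replicate 2 (signal 111.0) and rank 1060 in replicate 3 (signal 68.0). It was the weakest of the cofactor peaks. A further region in the 3′ UTR of pzg was in all 3 full lists at low rank (5641 pooled, 7409 in replicate 2, 19168 in replicate 3). It was not in the reproducible list.

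**Figure D1:**
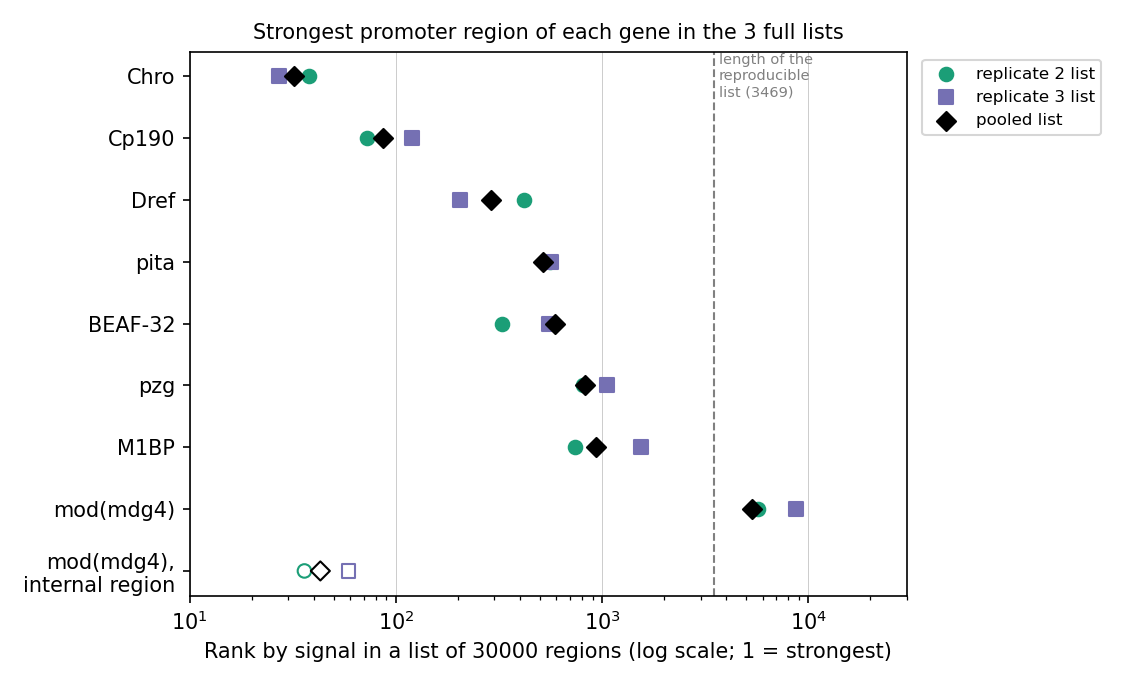
Rank by signal (log axis, strongest at the left) of the strongest region at the promoter of each gene (500 bp either way), in the pooled list and in the lists of replicates 2 and 3; open symbols show the region inside mod(mdg4), and CTCF and su(Hw) have no such region to plot. The 7 genes with a promoter peak lie left of the dashed line at 3469 in all 3 lists, and the mod(mdg4) start site lies right of it. For BEAF-32 the replicate 2 symbol (rank 328) is a region at another start site than the other symbols.

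mod(mdg4) encodes a large family of BTB proteins, 1 of them a part of the gypsy insulator. Their messages share a common 5′ part, which is joined by trans-splicing to many different 3′ ends, some transcribed from the opposite strand. The annotation gives mod(mdg4) 22 transcripts with 1 start site over 26556 bp (3R, 21350846 to 21377401, minus strand). It also gives 23 precursor genes, named pre-mod(mdg4) with a letter code, which lie inside it and have 7 start sites of their own.

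The region inside mod(mdg4) ran from 21365225 to 21365639 with a signal of 718.3 and ranked 43 of the 3469 reproducible peaks. It ranked 36 in replicate 2 (signal 461.7) and 59 in replicate 3 (signal 258.3), so it was among the 60 strongest regions of both. Its summit was 11946 bp from the mod(mdg4) start site, in an intron of mod(mdg4), and 33 bp from the start site of pre-mod(mdg4)-E on the minus strand. Start sites of 10 precursor genes lay within 500 bp of it. On the minus strand these were pre-mod(mdg4)-E, -C and -AB, and on the plus strand pre-mod(mdg4)-AD, -AE, -U, -V, -W, -X and -Y, which share a start site 154 bp from the summit. The region therefore lay at a head-to-head promoter of precursors of both strands, and ranked 33 among the 2289 promoter peaks. Over all protein-coding genes, 744 (5.33%) had a reproducible summit in the gene body over 500 bp from their own start sites, and mod(mdg4) was the only 1 of the 10 genes that did.

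The other 4 precursor start sites carried no region within 500 bp in any of the 4 lists. The start site shared by 8 minus-strand precursors was 5687 bp from the nearest reproducible summit, and that of pre-mod(mdg4)-T and -Z was 5279 bp away. The nearest one in both cases was the internal peak itself. The second start site of pre-mod(mdg4)-U and -V was 2674 bp from it. The start site of pre-mod(mdg4)-AA, -N and -O was 5185 bp from a reproducible summit.

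The start site of mod(mdg4) itself fell below the reproducible list. A region centred 5 bp from it had a signal of 41.7 and ranked 5347 in the pooled list, 5722 in replicate 2 (signal 24.3) and 8757 in replicate 3 (signal 18.6). The lowest signal in the reproducible list was 58.2. M1BP, the weakest of the 7 genes with a promoter peak, had 167.4. A reproducible peak (signal 65.3, rank 3037) lay 1359 bp upstream of the mod(mdg4) start site, but 217 bp from that of tin, the heart homeobox gene tinman.

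**Figure D2:**
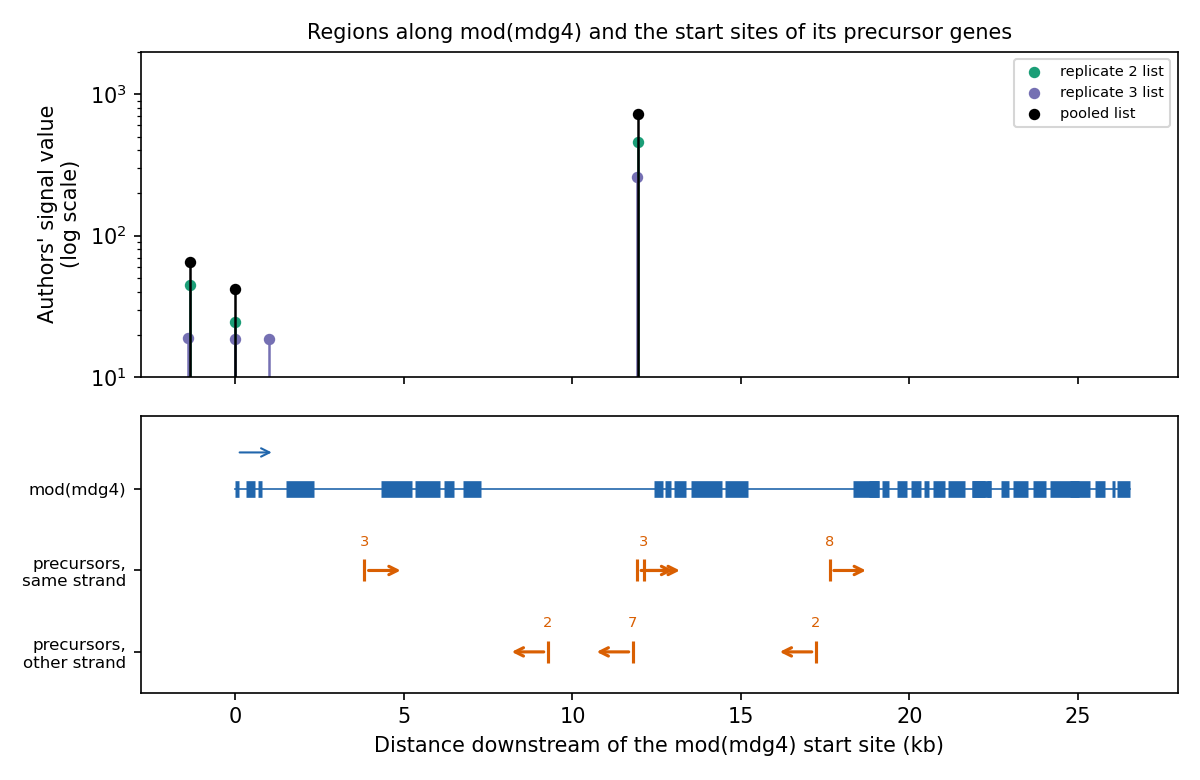
Upper panel, the authors' signal (log axis) of every region of the pooled and replicate lists along mod(mdg4) and its upstream flank, by distance of the summit from the mod(mdg4) start site in kb; lower panel, exons of mod(mdg4) and start sites of its precursor genes, with arrows in the direction of transcription and numbers of precursor genes. The start site of pre-mod(mdg4)-E nearest the summit, close to another on its strand, carries no number. The region with signals of 718.3 (pooled), 461.7 (replicate 2) and 258.3 (replicate 3) stands at the head-to-head start sites of 10 precursors, and the start site of mod(mdg4) has 41.7, 24.3 and 18.6.

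Of the promoter-binding factor genes, Dref had a peak above the median signal of the 7 promoter peaks, and M1BP had the weakest of them. Both were above the median over all promoter peaks (114.7). Dref encodes the factor that binds the DNA replication-related element at housekeeping promoters. Its peak (2L, 9967014 to 9967433) had a signal of 319.2 and ranked 289, with rank 419 in replicate 2 (signal 162.0) and rank 204 in replicate 3 (signal 158.0). The summit was 5 bp from the start site of Dref and 89 bp from that of RpL13, a ribosomal protein gene on the other strand.

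M1BP encodes the zinc finger factor that binds core promoter motif 1. Its peak (3R, 8731819 to 8732238) had a signal of 167.4 and ranked 935, with rank 742 in replicate 2 (signal 118.2) and rank 1536 in replicate 3 (signal 52.2). That summit was 331 bp from the start site of M1BP and 62 bp from that of CG8202, so it was nearer to the neighbour.

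Among the genes of the DNA-binding insulator proteins the outcome was split. Zinc finger protein pita recruits Cp190, and its gene had a peak (2R, 23554414 to 23554833) with a signal of 239.8 and rank 514. The region ranked 559 in replicate 2 (signal 138.6) and 568 in replicate 3 (signal 97.9). The summit lay 88 bp inside the 5′ UTR, and no other gene had a start site within 500 bp. At the second pita start site, 23551551, which is within 500 bp of that of the caspase gene Dcp-1, the pooled list had only a region ranked 4520 (signal 47.1).

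BEAF-32, which is named for its role at the scs′ boundary element of a heat shock locus, has 3 start sites with 1 transcript each. The reproducible peak (2R, 14771052 to 14771471, signal 222.0, rank 590) lay 39 bp upstream of the innermost, 14771301. In replicate 2 that region ranked 813 (signal 110.8) and in replicate 3 it ranked 554 (signal 98.6). Replicate 2 had a stronger region, 181 bp wide and ranked 328 (signal 179.6), 45 bp upstream of the outermost start site, 14770469. Neither replicate 3 nor the pooled list had a region there. Of the 3469 strongest regions of replicate 2, 302 (8.71%) were overlapped by none of the 30000 regions of replicate 3.

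CTCF and su(Hw) had no region within 500 bp of a start site in any of the lists, down to rank 30000. In the pooled list 8 of the 10 genes had such a region, against 41.9% of protein-coding genes. CTCF encodes the fly form of the zinc finger insulator protein shared with vertebrates, and su(Hw) the protein that binds the gypsy retrotransposon insulator. The nearest pooled summit was 33196 bp from the CTCF start site, near that of Rint1, and 1.4% of protein-coding genes were farther from one. The median distance over these genes was 915 bp. For su(Hw) it was 13834 bp, inside the gene red, and 5.91% of genes were farther. Polr2I, which encodes an RNA polymerase II subunit, has a start site within 500 bp of that of su(Hw), so it lies in the same stretch without regions.

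The gap around CTCF was shorter in the replicates. Both had a region at the start site of Cln7, 11578 bp from CTCF in replicate 2 (rank 1234, signal 83.6) and 11577 bp in replicate 3 (rank 453, signal 110.6). The pooled list had none there. Of the 3469 strongest regions of each replicate, 300 in replicate 2 (8.65%) and 295 in replicate 3 (8.50%) had no overlapping region in the pooled list, and 123 of each set overlapped a region of the other replicate. Cln7 is 1 such case.

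The order of the 7 promoter peaks in the reproducible list was Chro, Cp190, Dref, pita, BEAF-32, pzg and M1BP. Chro and Cp190 came first and second in both replicates. pita and BEAF-32 were 514 and 590 in the pooled list, and pzg and M1BP 824 and 935. The ranks of pita (559 and 568 in replicates 2 and 3) lay within those of BEAF-32 at the reproducible site (813 and 554), and those of pzg (811 and 1060) within those of M1BP (742 and 1536). Their order is thus smaller than the difference between replicates. The signals of the 7 ran from 167.4 to 808.0 with a median of 239.8, beside a median of 135.4 over the 2701 protein-coding genes with a promoter peak. Among these genes Chro ranked 38 and M1BP 1106. The 7 peaks also shared the highest −log10 q-value of the list (3.5), as did 1584 of its 3469 regions.

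**Figure D3:**
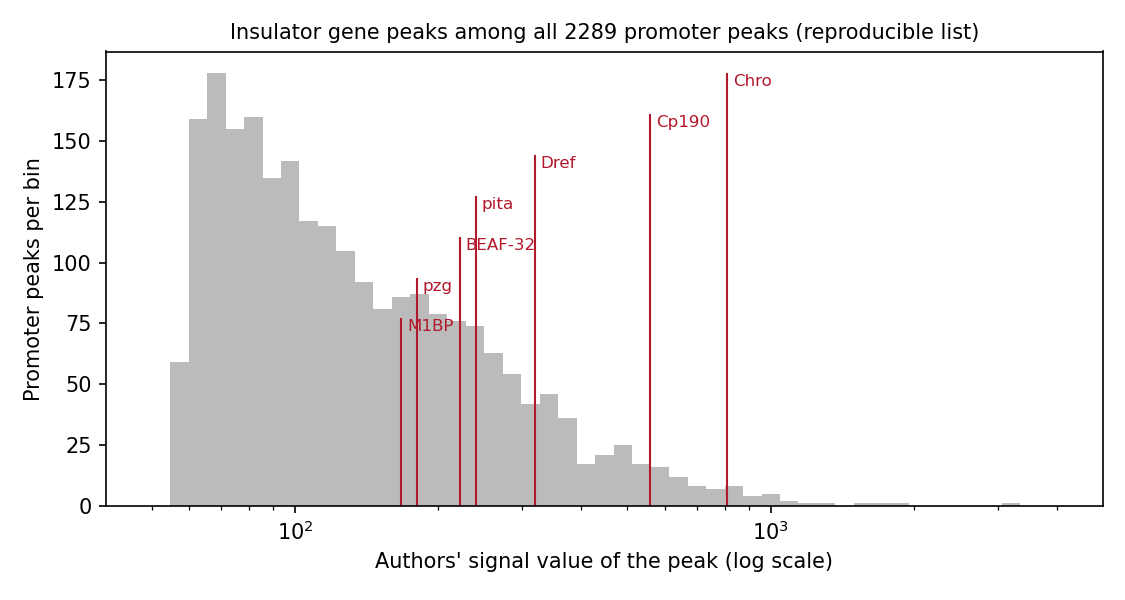
Histogram of the authors' signal (log axis) over all 2289 promoter peaks of the reproducible list, with a red line at the peak of each of the 7 genes. All 7 lie above the median of the promoter peaks, 114.7, with Chro at 808.0 and Cp190 at 556.7 in the upper tail.

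Most of these promoters were shared. Of the 7 promoter peaks, 6 had a start site of another gene within 500 bp and 5 that of another protein-coding gene. Over all 2289 promoter peaks of the list the shares were 42.1% and 37.0%. All 6 pairs were head to head by the start sites nearest the summit. At BEAF-32 that is the innermost start site, and the partner gene overlaps its other start sites on the opposite strand. The partners were Ssl1 (a subunit of the general transcription factor TFIIH) for Chro, CG4338 for Cp190, CG12974 for pzg, RpL13 for Dref, CG8202 for M1BP and the antisense RNA gene asRNA:CR42254 for BEAF-32. The start sites of a pair were 6 bp apart at BEAF-32, 84 bp at Dref, 105 bp at Chro, 137 bp at pzg, 281 bp at Cp190 and 393 bp at M1BP.

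The position of the summit within a pair differed. At Cp190 and M1BP it lay between both start sites. Chro and Dref had it on their own transcribed side, at 85 bp and 5 bp from their start sites. For Chro this holds for the outermost start site, which has 1 transcript. The Chro summit lay upstream of the start site that has 3 transcripts. In replicate 2 the Dref summit lay 2 bp upstream of the Dref start site, between those of the pair. At pzg it lay on the transcribed side of CG12974, 75 bp from that start site and 212 bp from pzg. The BEAF-32 summit was 33 bp inside the antisense RNA gene and 39 bp upstream of the innermost BEAF-32 start site. It also lay inside BEAF-32 itself, in the 5′ UTR. By distance to these start sites, then, 3 of the 6 summits were nearer to the partner (pzg, M1BP and BEAF-32). With the promoter window narrowed to 200 bp, pzg and M1BP lost their peaks, which left 5 of 10 genes, against 14.4% of protein-coding genes.

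**Figure D4:**
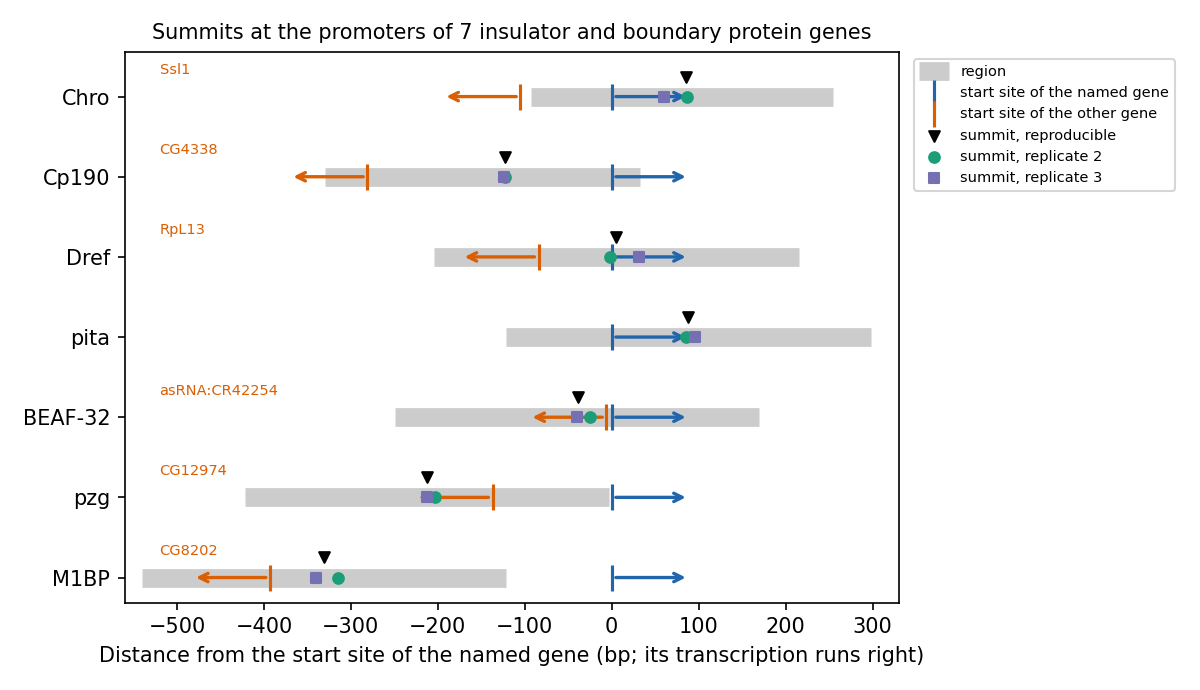
Position of the reproducible region (grey bar) and of the summits in the reproducible and replicate lists at 7 promoters, by distance in bp from the start site of the named gene, with that gene transcribed to the right and its partner's start site and direction in orange. The Cp190 and M1BP summits fall between both start sites, while the pzg summit falls beyond the start site of CG12974; pita has no partner.

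The sequences around the summits were searched on both strands for elements known for several of the 10 proteins. CGATA, the core bound by BEAF-32, occurred within 100 bp of the summit in 5 of the 7 promoter peaks (BEAF-32, pita, Chro, pzg and Dref). It occurred in 40.8% of all 2289 promoter peak windows and in 37.1% of windows of the same 201 bp at all 19275 start sites of protein-coding genes. It lay 20 bp from the Dref summit, as capitals show in the printed stretch, and 5 bp from the Chro summit. In the Cp190 stretch it lies outside the 100 bp limit. The longer element TATCGATA, bound by Dref, contains CGATA and occurred in none of the 7 windows (7.25% of peak windows, 6.44% of start site windows).

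GGTCACACT (bound by M1BP), AGNTGGCGC (CTCF) and TGCATAC (su(Hw)) were also in none of the 7 windows. Over all promoter peaks their shares were 3.06%, 1.49% and 2.49%, and at start sites 4.42%, 0.752% and 1.62%. GAGAG, bound by the GAGA factor, was in the Dref window alone (22.0% of peak windows, 25.0% of start site windows). ACAGTGG and AGTGTTG were searched because earlier results of these data had found them frequent at summits. ACAGTGG was in no window of the 7 (5.90% of peak windows, 2.28% of start site windows). AGTGTTG was in that of BEAF-32 alone, which held 2 copies (230 of the 2289 peak windows, 5.25% of start site windows). None of the 8 elements was within 100 bp of the summit inside mod(mdg4). A match is a run of letters and not a measured site, and no difference between these counts and shares was tested.

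A second list held 30 other genes of chromosome architecture and of the partners of these proteins, of which 29 matched a gene. This list too was chosen with earlier results of these data known, so its count is a description and was not tested. Of the 29, 11 had a promoter peak (37.9%, against 19.3% of protein-coding genes). Among genes of DNA-binding or BTB factors these were Trl (GAGA factor, signal 228.0), psq (292.6), lolal (84.8) and gfzf, a partner of M1BP (229.8, a peak also near Sas-4). Among the rest were row (486.9, rank 120), the condensin gene Cap-H2 (328.8, also near MED7), shep (208.8), the histone kinase gene JIL-1 (172.8), the BET protein gene fs(1)h (96.8, also near mys), l(3)mbt (83.6, also near CG5934) and the cohesin loader gene Nipped-B (71.5). The lolal peak was also near CG10914. Of these 11, row had ranks closest to those of Cp190, with 113 in replicate 2 and 133 in replicate 3.

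The other 18 genes had no promoter peak. These included the cohesin subunit genes vtd, SMC1 and SMC3, the insulator protein genes dwg, ZIPIC, Ibf1, Ibf2, Elba1, Elba2, Elba3 and insv, and the genes Clamp, HIPP1, Topors, woc, Trf2, E(bx) and Iswi. In the replicates' own lists vtd, Ibf1, Ibf2, Clamp and Topors had a promoter region in both, with ranks of 6064 and 3801 for Topors. Ibf1 and Ibf2 had the same ranks (4703 and 13330). Iswi (rank 2811) and Trf2 (4264) had one in replicate 2 alone, and SMC3 and Elba1 in replicate 3 alone. The rest had none in either replicate. Of the 18 genes, Clamp (signal 81.4) and Trf2 (355.9) had a region in the gene body. Among the 11 genes with a promoter peak, Trl, psq, shep, JIL-1 and fs(1)h also had gene body regions. Over all protein-coding genes, 5.33% had a reproducible summit in the gene body, and gene bodies differ in length. The strongest of the 3 in Trl had a signal of 1149.6, above that of any region at the 10 genes. The strongest gene body signals were 186.2 in shep, 171.0 in JIL-1, 148.2 in psq and 99.2 in fs(1)h. Some of the 11 differed in rank between replicates. Cap-H2 ranked 242 in replicate 2 and had no summit within 500 bp in replicate 3. Nipped-B ranked 2627 in replicate 2 and 9214 in replicate 3. The gene fs(1)h ranked 5020 in replicate 2 and 3160 in replicate 3.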

How the data were processed

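The authors deposited narrowPeak lists on dm6 and dm3. Per the notes deposited with the files, there is 1 list from each replicate, 1 from both pooled and 1 of peaks passing the irreproducible discovery rate between replicates (called reproducible). Each region of the reproducible list at the 10 genes had the same rank and signal in the pooled list. Both lists hold 3011 regions with a q-value under 0.05. A gene with a peak in the reproducible list need not have a promoter summit in each replicate, as Cap-H2 had none within 500 bp in replicate 3. Whether a region of replicate 3 overlaps the Cap-H2 peak was not examined. The deposited signal (column 7) and −log10 q-value (column 9) are the authors' own, and no source used here names the aligner or peak caller. The lists hold no read counts, so depth is unknown. The 4 dm6 lists were used, and the 4 dm3 lists were not. The replicates (biological, per the labels) were taken as distinct libraries. They shared 0 regions with identical coordinates, which cannot show this, since median widths differed (404 bp in replicate 2 and 410 bp in replicate 3).

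Start sites came from Ensembl release 115 without transposable elements, and sequence from RefSeq. Regions were assigned with pandas 2.3.3 and numpy 2.4.6 under Python 3.11.15, and the assignment was tested on simulated data. The members, the second gene list and the elements were chosen with earlier results of these data known, so no test was made. The text names the 10 genes, genes that share their promoter summits, genes nearest where there was none, and members of the second list. Those of the second list without a peak, Polr2I and Dcp-1 were named after the values were seen. Alternatives covered the promoter window, list, replicate, overlap (at least 1 bp), transcript type and element window.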

Additional observations from a re-analysis of the deposited data

How the results depend on the processing

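The count of 7 genes with a promoter peak was the same with a window of 1000 bp, in the 1734 strongest peaks, among regions with a q-value under 0.05, with overlap in place of the summit, with start sites of protein-coding transcripts, and without replicate 2 or 3. Without a replicate, the strongest regions of the other replicate's own list were used. Over these settings the share of protein-coding genes ran from 12.7% (1734 strongest peaks) to 21.8% (1000 bp window). The count was 5 with the 200 bp window and 8 when the start sites of its precursor genes counted for mod(mdg4), an alternative chosen after seeing the data. For the precursor alternative no share of protein-coding genes was computed. In the 1734 strongest peaks the second list fell to 7 genes and the background to 1775 protein-coding genes. Without replicate 2 the second list had 8 genes, with lolal, Nipped-B and Cap-H2 lost, and without replicate 3 it had 11, with fs(1)h lost and Iswi gained. The background ran from 2754 to 2949 genes without a replicate. Ranks of the strongest promoter region in single replicates ran from 328 to 554 for BEAF-32 (328 is a different region of replicate 2, in which the reproducible one ranked 813), 559 to 568 for pita, 811 to 1060 for pzg, 742 to 1536 for M1BP, 72 to 120 for Cp190, 27 to 38 for Chro, 204 to 419 for Dref and 5722 to 8757 for the mod(mdg4) start site. CGATA was held by 3 of the 7 peaks within 50 bp of the summit (23.9% of all promoter peaks) and 6 within 200 bp (60.2%). GAGAG was held by 0 within 50 bp (10.9%) and 2 within 200 bp (41.1%), and TATCGATA by 2 within 200 bp (pita and Cp190; 12.7%). The counts rose with the width of the window, as did the shares over all promoter peaks, and the reason was not tested. No paired analysis was possible because there is 1 group. The number of replicates, 2, and unknown depth limit what the ranks show.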
